A study of Mus musculus with 105 samples.

Results

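The miRNAs described here are the mature products of the repeat families miR-466, miR-467 and miR-669 and of their relative miR-297, most of which lie as near-identical hairpins inside the mouse gene Sfmbt2. Members were all miRNA rows whose name begins mmu-miR- followed by the number of one of these families and no further digit. This gave 51 of 1013 miRNA rows: 20 of miR-466, 10 of miR-467, 21 of miR-669 and 0 of miR-297. Of these, 48 had 50 or more counts summed over the input libraries and are described. The other 3, miR-466f-5p, miR-467g and miR-467h, held 39, 3 and 9 input counts.

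The study labelled mouse cells with 5-ethynyluridine (5EU), a uridine analogue that is built into newly made RNA and allows it to be pulled down. EU libraries hold the pulled-down small RNA after a given labelling time, and input libraries the total small RNA of the same cells. CIMEF are contact-inhibited and DMEF dividing embryonic fibroblasts of strain C57BL/6J, given 400 µM 5EU. ESC are embryonic stem cells of line v6.5, with the strain recorded as C57BL/6, given 125 µM. CyrKO are contact-inhibited C57BL/6J fibroblasts, also given 400 µM, that lack the long noncoding RNA Cyrano. Labelling ran to 1 week in CIMEF and CyrKO, 72 h in DMEF and 24 h in ESC, in 2 time courses for each wild-type line and 1 for the knockout.

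A miRNA is cut from a hairpin precursor, which yields a 5p and a 3p strand. One strand is usually kept by an Argonaute protein and the other is lost. The host, Sfmbt2, encodes a polycomb-group protein that is imprinted and needed in the placenta, and its miRNA cluster is known from stem cells and trophoblast. In the GRCm38.p6 annotation of RefSeq, 71 of the 81 hairpin genes of the 4 families lie within Sfmbt2, at chr2:10370440-10595253, between positions 10466663 and 10518279, a span of 51.6 kb. Copies under the same name are common: Mir669a has 12, Mir467a 10 and Mir466b 8 within the gene. Their products were not compared, and Mir669a-3 has a row of its own, miR-669a-3-3p. Several rows carry joined letters, such as miR-669ao-3p or miR-466ade-3p. The files do not say what the joining means, and within a row the reads of a copy cannot be told from those of others.

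The 4 members matched to a RefSeq sequence hold runs of alternating letters and between 3 and 9 uridines, the base that 5EU replaces. None of the 4 lies in Sfmbt2 and no 2 come from the same hairpin, so they do not show how the strands of the other rows differ. Those of miR-466i-3p and miR-467g repeat CA and those of miR-466k and miR-467h repeat UG, and capitals mark the seed, bases 2 to 8, which pairs with targets.
miR-466i-3p: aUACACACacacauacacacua
miR-466k: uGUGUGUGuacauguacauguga
miR-467g: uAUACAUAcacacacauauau
miR-467h: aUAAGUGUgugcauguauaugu
The sequence of miR-466i-3p (chr13:17747552-17747573, plus strand) holds 3 uridines in 22 bases. That of miR-466k (chr3:85467396-85467418, plus strand) holds 9 in 23. No 2 of the 4 share a seed. miR-467g lies at chr5:34732872-34732892 on the minus strand and miR-467h at chr9:115381898-115381919 on the plus strand.

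The members together were most abundant in ESC. Their summed input level was 15409 and 14836 CPM in the ESC courses, 7687.5 and 5109.6 in DMEF, 2127.1 and 4685.8 in CIMEF and 2020 in CyrKO, where CPM is the count per 1e6 miRNA counts of the course. The ESC courses lay above all others, and the fibroblast lines lay in the order DMEF, then CIMEF, with a gap between CIMEF courses about as wide as the gap between the lines. In such bulk samples, fewer cells that make a miRNA and less of it per cell cannot be told apart. As a mean, members made up 1.51% of miRNA counts in ESC, 0.64% in DMEF and 0.341% in CIMEF. The level was spread over few rows: the 12 most abundant rows held 81.9% of the members' counts in ESC and 82.4% in DMEF. Strands were about even in ESC, with 7535.6 ± 613 CPM (SD, n = 2 courses) in the 24 5p rows and 7250.9 ± 286 in the 21 3p rows.

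The most abundant member, miR-669ao-3p, reached 3213 and 3167 CPM in the ESC courses, 1491 and 1039 in DMEF, 457.8 and 929.8 in CIMEF and 488 in CyrKO. It ranked 45 among all miRNAs in ESC, 74 in DMEF and 107 in CIMEF. Within a course it varied little: the 7 libraries of ESC course 1 ran from 2627 to 3570 CPM with a median of 3134. The second, miR-467a-5p, was at 2757 and 2210 CPM in ESC, 1647 and 895.3 in DMEF and 461.2 and 805.5 in CIMEF. For both members the ESC courses were above every fibroblast course. Next, miR-669ap-5p was at 1253 and 1200 CPM in ESC, 613.1 and 417.9 in DMEF and 124.8 and 306 in CIMEF. The 3p rows miR-466ade-3p, miR-467cde-3p and miR-466bcp-3p followed at means of 1003, 922.7 and 895.9 CPM in ESC, and their DMEF means were 338.3, 354.6 and 301. Less steep were the 5p rows miR-669b-5p, miR-669d-5p, miR-467e-5p and miR-467d-5p: miR-467e-5p had 352.7 and 330.3 CPM in ESC against 255.6 and 156.9 in DMEF. The lowest of the 12 by mean was miR-467c-5p, with 413.4 and 357.7 CPM in ESC, 174.5 and 115.2 in DMEF and 40.98 and 86.69 in CIMEF.

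**Figure D1:**
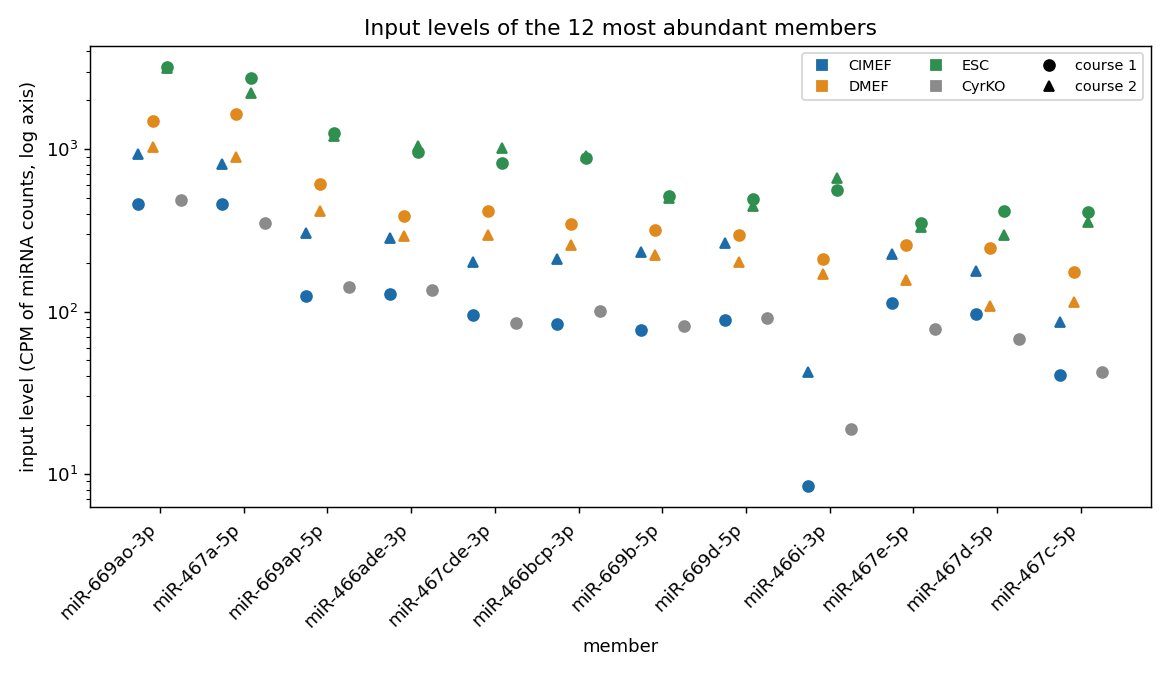
Input level of the 12 most abundant members in each course, in CPM on a log axis, with circles for course 1 and triangles for course 2. ESC points lie on top for each member, and the CIMEF courses are separated for all 12, widest for miR-466i-3p at 8.376 and 42.65 CPM.

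The steepest line dependence among abundant members was that of miR-466i-3p. It had 558.8 and 666.7 CPM in ESC, 210.2 and 171 in DMEF, 8.376 and 42.65 in CIMEF and 18.97 in CyrKO, so that the 3 wild-type lines did not overlap and the knockout lay between the CIMEF courses. Its hairpin is among the 10 that lie outside Sfmbt2 in the annotation; whether other copies contribute reads was not tested.

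Of 49 members that passed the expression filter, all 49 had a positive log2 difference for ESC minus DMEF, beside 56.4% of all miRNAs. Most of the hairpins lie in the same gene, so the 49 rows are not separate observations. Of the 49, 7 passed the test, all higher. Over all miRNAs tested, 47.8% were called in that comparison, 22.8% higher and 25% lower. The members' median log2 difference was 1.12, against 0.52 over all 812 miRNAs. The share of members called was thus below the background while their median was above it. Those with the largest differences were low in count: miR-669j, miR-669h-3p, miR-669h-5p, miR-466l-3p and miR-669p-3p, with log2 differences of 3.77, 3.23, 2.50, 2.09 and 2.02. miR-669j had 1.993 and 2.37 CPM in the ESC courses against 0.1261 and 0.1299 in DMEF, from 77 and 5 counts (SE of the log2 0.61, adjusted p = 0.00436). miR-669h-5p had 11.73 and 19.47 CPM in ESC and 2.081 and 2.598 in DMEF. The abundant miR-669ao-3p did not pass, at a log2 difference of 1.08 ± 0.50 (SE) and an edgeR adjusted p of 0.129, and neither did miR-467a-5p, at 0.70 ± 0.53. None of the 12 most abundant rows passed.

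For ESC minus CIMEF, 21 of 49 members passed, all higher, against 56.5% called over all miRNAs, 27.3% higher and 29.2% lower. Again 49 of 49 had a positive difference, beside 54.6% of all miRNAs. The median was 1.69, beside 0.43 over all miRNAs. Of the 21 called, 13 were among the 21 3p rows tested and 6 among the 24 5p rows. Over all miRNAs, 102 of 387 3p rows and 104 of 383 5p rows were called higher. The largest differences were those of miR-669j (4.61), miR-466i-3p (3.89 ± 0.90, adjusted p = 0.013), miR-466f-3p (3.30), miR-467a-3p (3.29) and miR-669h-3p (3.26). miR-466f-3p had 18.45 and 22.8 CPM in ESC and 0.3298 and 2.275 in CIMEF. miR-467a-3p, the scarce partner of miR-467a-5p, had 59.01 and 59.19 CPM in ESC, 16.02 and 13.9 in DMEF and 2.111 and 5.433 in CIMEF. Abundant rows that passed were miR-669ao-3p (1.52 ± 0.51, adjusted p = 0.0454), miR-669ap-5p, miR-466bcp-3p, miR-467cde-3p and miR-467c-5p. These counts depended on single courses, and so did the number called over all miRNAs. With 1 course left out, the members' median for ESC minus DMEF ran from 0.645 (without DMEF course 2) to 1.598 (without DMEF course 1). For ESC minus CIMEF it ran from 1.142 (without CIMEF course 1) to 2.579 (without CIMEF course 2). The members' median stayed above 0 in all 12 of these fits. All lines entered 1 fit and shared its scaling and estimate of spread.

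The fibroblast lines were not separated by the test. CIMEF minus DMEF gave 0 called members in edgeR, against 0% of all miRNAs, with 3 members at an unadjusted p under 0.05. DESeq2 called 2 members lower, where it called 110 miRNAs over all, 69 higher and 41 lower. When either CIMEF course was left out, calls appeared among members and over all miRNAs. The members' median was -1.327 without CIMEF course 2 and -0.04 without CIMEF course 1. With all courses it was -0.56, and 8 of 49 had a positive difference, beside 49.8% of all miRNAs. The loss of Cyrano was not checked, since no mRNA library of the knockout was analysed here. The knockout has 1 course, which the fit assumes to vary like those of the other lines, so the comparison has no replicate check of its own. It gave 0 called members against CIMEF, where 0.862% of miRNAs were called, with 0 members at an unadjusted p under 0.05 in edgeR and 0 called by DESeq2. Its median of -0.77 was 0.14 without CIMEF course 2 and -1.21 without CIMEF course 1, where 17 members had an unadjusted p under 0.05 and 0 passed in edgeR. The CIMEF courses differed for these rows: the median difference of course 1 minus course 2 was -1.27 over 49 members and -0.10 over all 812 miRNAs, and 1 of 49 was higher in course 1. In DMEF it was 0.45 with 39 higher, and in ESC -0.01 with 23 higher.

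The mRNA of the host was compared in the same lines. Sfmbt2 was at 47.31 and 47.5 CPM in ESC, 18.02 and 15.9 in DMEF and 6.466 and 15.46 in CIMEF. It was higher in ESC than in DMEF by a log2 of 1.13 ± 0.37 (SE, edgeR adjusted p = 0.0321; 60.8% of 18094 genes were called, 30.3% higher and 30.5% lower) and than in CIMEF by 1.95 ± 0.38 (adjusted p = 0.00286; 75.9% called, 38.2% higher and 37.7% lower). CIMEF minus DMEF was -0.81 with an adjusted p of 0.122, where 40.6% of genes were called, and -1.58 with an adjusted p of 0.000988 without CIMEF library 2. The ESC minus DMEF call was lost without any one of the DMEF and ESC libraries, at adjusted p from 0.0873 to 0.173. The lower of the CIMEF libraries, labelled replicate 1, carries the same number as the miRNA course with the lower member level; the labels do not say whether they were the same cells.

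**Figure D2:**
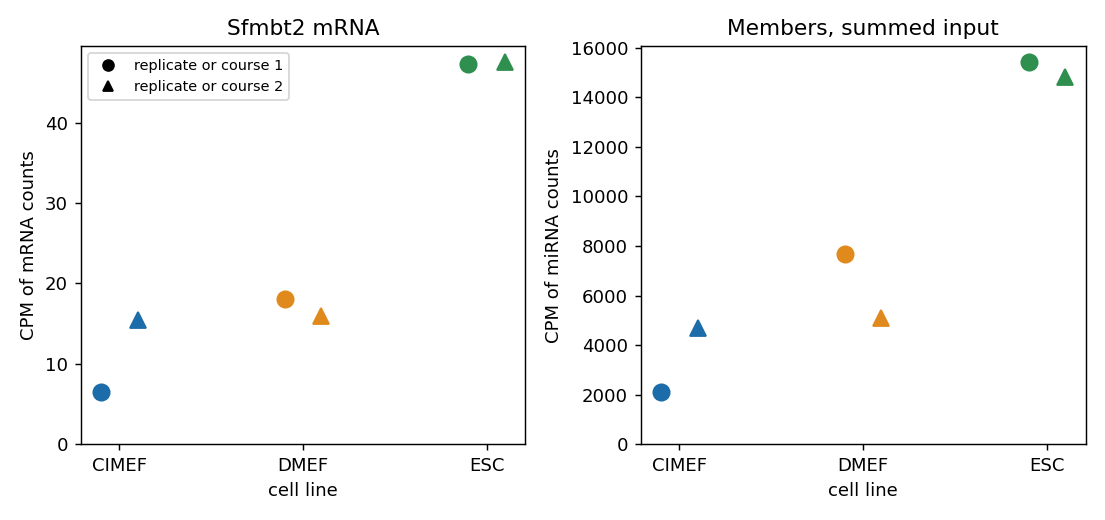
Sfmbt2 mRNA (left) and summed input level of the 51 member rows (right) in CPM, with circles for replicate or course 1 and triangles for 2. Both are highest in ESC, and in CIMEF both are lower in number 1, at 6.466 against 15.46 CPM for the mRNA and 2127.1 against 4685.8 CPM for the members.

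The genes beside Sfmbt2 were mixed. Of the 3 coding genes listed on each side, Kin, Itih2, Itih5, Prkcq, Pfkfb3 and Rbm17, 5 were tested. For ESC minus DMEF 0 were higher and 3 lower, and for ESC minus CIMEF 1 was higher and 2 lower. Over all genes, 30.3% were higher and 30.5% lower for ESC minus DMEF, and 38.2% and 37.7% for ESC minus CIMEF. Rbm17, a splicing factor gene, had the same order of lines as Sfmbt2, at 86.88 and 87.82 CPM in ESC, 57.66 and 59.16 in DMEF and 48.55 and 48.8 in CIMEF, and was higher in ESC than in CIMEF by a log2 of 0.68 (adjusted p = 0.00249). Itih2, which encodes a secreted hyaluronan-binding protein, fell from 22.73 and 22.47 CPM in DMEF to 0.2323 and 0.1718 in ESC. A list of 15 polycomb genes, Sfmbt2 included, held 8 that were higher and 4 that were lower for ESC minus DMEF, and 7 and 7 for ESC minus CIMEF. These counts, too, stand beside the shares over all genes given above. L3mbtl2, a further MBT-domain protein of a polycomb complex, was at 215.6 and 225.8 CPM in ESC against 34.97 and 44.05 in DMEF, and Sfmbt1, the paralogue of the host, went the other way at 33.3 and 30.49 against 63.89 and 67.4. By sums, the lines carried the markers of their labels. The 8 stem cell genes summed to 4835 and 5015 CPM in ESC and 29.3 to 42.7 in the fibroblasts, and all 8 were higher in ESC than in either fibroblast line. The 8 fibroblast genes summed to 2747 and 2917 CPM in ESC and 28365 to 34082 in the fibroblasts. In ESC 8 of them were lower than in DMEF and 7 lower than in CIMEF. The exception was Thy1, at 36.41 and 1.172 CPM in CIMEF against 3.368 and 4.252 in ESC. Trophoblast markers, whose tissue is known for this cluster, summed to 50.2 to 78.2 CPM over all 6 libraries, and 2 of 10, Tpbpa and Prl3d1, had a count of 0 in each. Members of this list moved in opposite ways for ESC minus DMEF, with 3 of 6 tested higher and 2 lower. Cdx2 was at 16.92 and 17.87 CPM in ESC against 0.2407 and 0.08799 in DMEF, Ascl2 and Esx1 were higher from low levels, Gata3 was at 0.4646 and 0.773 against 42.98 and 49.83, and Krt7 was lower. Primitive endoderm markers summed to 10.1 and 11.6 CPM in ESC and 227 to 795 in the fibroblasts, mostly from Dab2 and from Pdgfra, which is also in the fibroblast list. Of 5 tested, 3 were lower and 1, Sox7, higher for ESC minus DMEF. The part of these cell types in the members' levels was not tested.

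In newly made RNA the 5p and 3p rows differed. Over 2, 4 and 8 h of labelling, the 5p rows of the members made up 90.2% and 88.3% of their input share in the ESC courses, 136% and 123% in DMEF and 53.8% and 81.7% in CIMEF. The 3p rows made up only 37.2% and 29% in ESC, 37% and 28.4% in DMEF and 11.2% and 16.1% in CIMEF, and 13.7% in CyrKO against 76.8% for 5p. The 3p share was below the 5p share in each of the 7 courses. Over all miRNAs the same shares were 92.6% to 109% for 5p and 88.1% to 104% for 3p rows. Those rows hold nearly all miRNA counts, so such sums lie near 100% in any case. Single rows varied widely. Among rows with 10 or more counts, the median log2 of EU over input was -1.17 and -1.84 for member 3p rows in ESC, against -0.23 in both courses for all 3p rows. It was -0.89 and -1.3 against 0.23 and -0.13 in DMEF, and -2.9 and -1.77 against 0.71 and 0.56 in CIMEF. No 0 h value was subtracted from these shares. In CIMEF course 1 the members per 1000 standard counts were at 50.95 at 0 h and 42.13 at 2 h.

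The most abundant row, miR-669ao-3p, was among the low ones. Its EU level was 942.7 and 767.6 CPM in ESC against 2970 and 3411 in the matching input, 427.3 and 201.7 against 1673 and 1079 in DMEF, and 39.05 and 77.12 against 482.1 and 935.5 in CIMEF. The EU share was thus 31.7% and 22.5% of input in ESC and 8.1% and 8.24% in CIMEF. By contrast miR-669ap-5p had EU levels of 1852 and 1406 CPM against 1230 and 1243 in ESC, and 1299 and 756 against 646.2 and 414.6 in DMEF. miR-669b-5p was the 5p row of the 12 with the highest shares in DMEF, at 259% and 187% of input, and reached 184% and 178% in ESC. miR-467a-5p lay between, at 58.3% and 63% of input in ESC, 117% and 102% in DMEF and 31.5% and 54.9% in CIMEF.

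**Figure D3:**
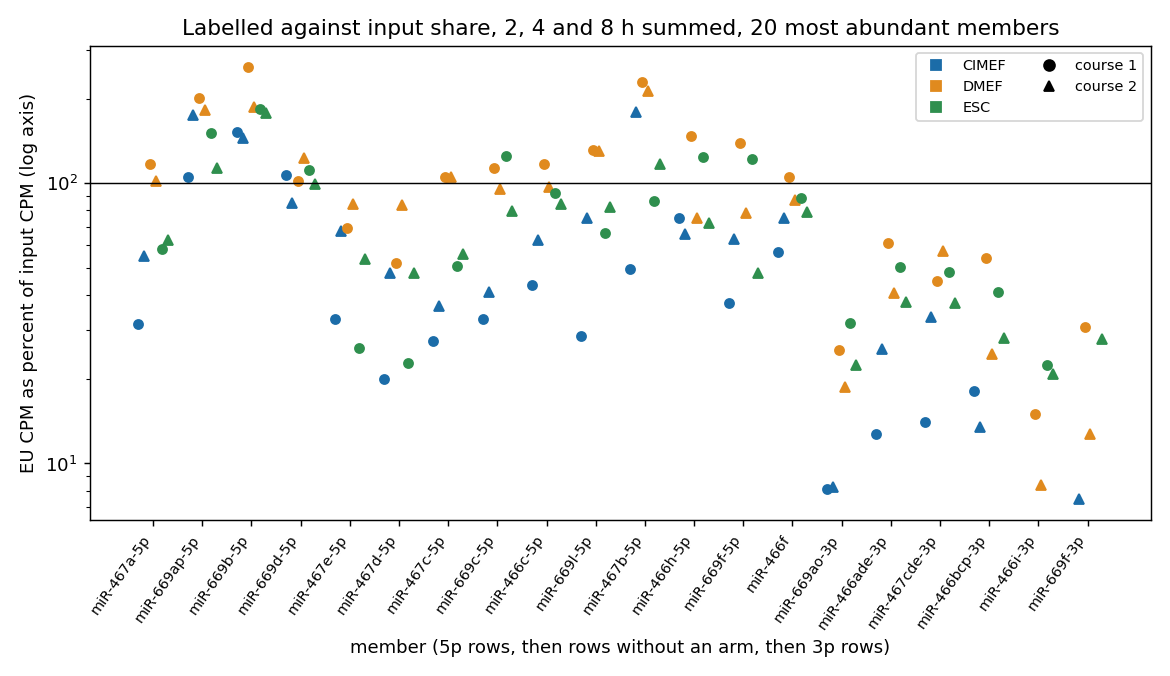
EU level as a percent of the input level of the same course on a log axis, for the 20 most abundant members with 2, 4 and 8 h summed, ordered from 5p to 3p rows; the line marks 100%, and points from 3 or fewer EU counts are left out. The 3p rows at the right all lie below 100%, down to 7.49% for miR-669f-3p in CIMEF, while 5p rows lie on both sides.

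Of the sequences printed above, those of miR-466i-3p and miR-466k belong to rows with enough counts. miR-466i-3p, with 3 uridines, was at 22.4% and 20.8% of input in ESC and 15% and 8.38% in DMEF. miR-466k, with 9, was at 126% and 60.9% in ESC and 168% and 104% in DMEF, though from 9 and 14 EU counts in ESC. Over all 527 miRNAs with a matched sequence, the median log2 difference of EU minus input in ESC was -1.19 for 88 with at most 4 uridines, -0.33 for 187 with 5 or 6, 0.09 for 164 with 7 or 8 and 0.72 for 88 with 9 or more. In DMEF these medians were -1.44, -0.27, 0.00 and 0.21. Spearman's rho with the uridine number was 0.45 in ESC, 0.36 in DMEF and 0.29 in CIMEF, as a description across miRNAs that share libraries. The medians rose with the number of uridines in both lines. The part of uridine number in the strand difference of the members was not tested, since a sequence was matched for 2 of the 48 described rows.

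In the fitted comparison, 8 of 43 members were lower and 1 higher in EU than in input in ESC, beside 15.9% called over all miRNAs, 7.94% lower and 7.94% higher. Of the 18 3p rows 7 were lower, and of the 22 5p rows 1 was lower and 1 higher. Over all miRNAs, 25 of 305 3p rows and 19 of 317 5p rows were lower. The median log2 difference was -1.41 for 3p and -0.14 for 5p rows, and -0.11 over all 655 miRNAs. The lower rows with the largest differences were miR-466h-3p (-3.30, from 0 and 4 EU counts), miR-466i-3p (-2.19 ± 0.48 (SE), adjusted p = 0.000148), miR-669ao-3p (-1.90 ± 0.41, adjusted p = 0.000113), miR-669f-3p (-1.74) and miR-466bcp-3p (-1.56). The 1 higher was miR-466i-5p, the scarce partner of miR-466i-3p, at 67.33 and 84.74 CPM in EU against 8.507 and 13.03 in input, from 4 and 17 EU counts. Its log2 difference was 2.84 ± 0.68 (adjusted p = 0.000633).

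In DMEF 12 of 43 were lower and 0 higher, beside 32.1% called over all miRNAs, 18.9% lower and 13.1% higher. Of the 18 3p rows 10 were lower, and of the 22 5p rows 2. Over all miRNAs, 70 of 305 3p rows and 43 of 317 5p rows were lower. The median was -2.03 for 3p and -0.34 for 5p rows. miR-466i-3p was at 35.61 and 13.64 CPM in EU against 236.8 and 162.8 in input (log2 -3.56 ± 0.48, adjusted p = 5.4e-12), and miR-466h-3p had 2 EU counts in each course against input levels of 51.17 and 49.68 CPM. In CIMEF 34 of 43 were lower and 0 higher, beside 52.8% called over all miRNAs, 38.8% lower and 14% higher. Of these 34, 15 were among the 18 3p rows and 16 among the 22 5p rows. Over all miRNAs, 122 of 305 3p rows and 115 of 317 5p rows were lower. The scaling moved this comparison: the median over all miRNAs was -0.89 in CIMEF, and relative to it the members' medians were -2.69 for 3p and -1.27 for 5p rows. In CIMEF the lowest fitted rows, such as miR-466h-3p (-6.19) and miR-466i-3p (-5.90), rest on 0 to 3 EU counts a course. Without the course as a block, 0 members passed in ESC, 0 in DMEF and 13 in CIMEF. With RLE scaling, DMEF had 4 members higher and 12 lower.

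These counts also moved with single courses, and so did the number called over all miRNAs. The size moved too: the members' median in ESC was -0.44, and -1.64 without CIMEF course 1, -1.70 without ESC course 1 and -1.62 without ESC course 2. For miR-669ao-3p the difference of -1.90 became -3.15, -3.14 and -2.62 in these fits. In DMEF the members' median was -0.485, and -0.47 without CIMEF course 2, -0.465 without DMEF course 1 and -0.611 without DMEF course 2. In CIMEF it was -2.312, and -0.947 without CIMEF course 1 and -2.409 without CIMEF course 2. Tested as a difference between lines, the gap between EU and input was wider in CIMEF than in DMEF for 12 of 43 members, beside 5.95% called over all miRNAs, 5.65% lower and 0.305% higher. Between ESC and DMEF 1 of 43 differed, beside 2.6%, of which 2.29% were higher and 0.305% lower.

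Few 3p rows went the other way. In the fits 2 of 18 were above 0 in ESC and 2 in DMEF, and none of these passed. The one with the most EU counts, miR-467a-3p, was at 61.98 and 38.97 CPM in EU against 18.53 and 14.27 in DMEF input, 84.17 and 79.75 against 60.72 and 62.26 in ESC, and 18.51 against 5.204 in CIMEF course 2. Its EU share was 335% and 273% of input in DMEF, above 100% in both, and 139% and 128% in ESC, on 5 and 16 EU counts.

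The ratio between the strands of a hairpin differed between EU and input. That of miR-467a-5p to miR-467a-3p was 44.7 and 36.6 in ESC input and 18.8 and 18 in ESC EU, 89.7 and 64.7 against 31.4 and 24.1 in DMEF, and 156 against 24.1 in CIMEF course 2. For miR-669f the 5p to 3p ratio moved upward from input to EU, from 0.809 and 0.778 to 3.64 and 4.78 in DMEF. For miR-466n the ratio was 0.948 and 1.67 in DMEF input and 1.2 and 1.56 in EU.

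During labelling, the labelled members accumulated in all 7 courses from the first labelled time to the last. Per 1000 counts of the added standards, their sum rose from 0.502 at 1 h to 7.531 at 24 h in ESC course 1 and from 1.021 to 15.96 in course 2. In DMEF it rose from 217.6 at 1 h to 4044 at 72 h in course 1 and from 122.4 to 1665 in course 2. In CIMEF course 2 it rose from 1.633 at 1 h to 274.5 at 1 week. The scale of these values differs between courses with the amount of standards and is comparable only within one. Before labelling, at 0 h, EU libraries of course 1 held 35 member counts of 21334 for CIMEF, 14 of 2262 for DMEF and 24 of 1196 for ESC.

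As a share of labelled miRNA, miR-467a-3p had the steepest slope of the members tested in both fibroblast lines. In DMEF, miR-467a-3p made up 269.9 CPM of the EU library at 1 h in course 1, then 89.21 at 2 h, 57.52 at 4 h, 47.52 at 8 h, 9.362 at 24 h and 5.359 at 72 h. In course 2 the same times gave 128.9, 77.87, 31.83, 18.06, 3.541 and 5.765 CPM. Both courses fell, on 25 and 43 counts at 1 h and 2 in each at 72 h. Its slope per doubling of time was -0.88 ± 0.08 (SE, adjusted p = 7.22e-08), and in CIMEF -0.45 ± 0.10 (adjusted p = 0.000772), where course 2 gave 72.49 CPM at 1 h and 4.06 at 1 week and course 1 had at most 1 count per library. Scaled by the standards, its CIMEF slope was 0.33. Its partner miR-467a-5p had a slope of -0.00 in DMEF and rose in CIMEF by 0.25 ± 0.04 (adjusted p = 2.02e-05).

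Of 13 members tested in ESC, 0 rose and 2 fell in share, beside 29.7% of all miRNAs called, 6.28% higher and 23.4% lower. They were miR-669ao-3p (-0.19 ± 0.06 (SE), edgeR adjusted p = 0.0263) and miR-669ap-5p (-0.14 ± 0.04, adjusted p = 0.0216). No member was called without 1 h, without ESC course 1 or without ESC course 2, and RLE scaling gave 1 higher and 0 lower. In DMEF 1 of 24 rose, miR-467c-5p (0.17), and 4 fell, beside 60.8% called over all miRNAs, 28.3% higher and 32.5% lower. Those that fell were miR-467a-3p, miR-466bo-5p (-0.24), miR-467b-5p (-0.24) and miR-669ap-5p (-0.14), and RLE scaling gave 2 higher and 4 lower. Without DMEF course 1, 3 were called. In CIMEF 10 of 23 rose and 1 fell, beside 62.1% called, 29.4% higher and 32.7% lower. Of the 17 5p rows 9 rose, and of the 5 3p rows 1. Over all miRNAs, 71 of 190 5p rows and 37 of 183 3p rows rose. The 10 were led by miR-669c-5p (0.27), miR-467a-5p (0.25), miR-467c-5p (0.23), miR-466c-5p (0.20) and miR-669l-5p (0.20). Without CIMEF course 2, 5 members could be tested and 3 rose. These slopes are shares of labelled miRNA and say nothing of amount. Scaled by the standards, 13 of 13 in ESC, 23 of 24 in DMEF and 23 of 23 in CIMEF rose. Over all miRNAs 206 of 239, 310 of 360 and 367 of 388 rose, so this rise is not particular to the members. The standards were also chosen by how seldom total miRNA per standard fell with time.

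The standing level of some members fell meanwhile in the fibroblast lines. In input, 0 of 45 members in ESC passed, beside 4.15% of all miRNAs, 3.45% higher and 0.691% lower. There 8 members had an unadjusted p under 0.05 in edgeR, and DESeq2 called 3 lower. In DMEF 8 of 36 fell, beside 22.1% called, 9.68% higher and 12.4% lower, and in CIMEF 5 of 37, beside 26% called, 13.7% higher and 12.2% lower. Slopes per doubling of hours + 1 ran from -0.15 for miR-466n-5p and miR-466ap-5p to -0.05 for miR-669ao-3p in DMEF. A course spans several doublings, so the change over a whole course is larger than the slope. The members' summed input went from 8387.8 CPM at 0 h to 7136.4 at 72 h in DMEF course 1. In course 2 it went from 5642.7 CPM at 1 h to 4537.9 at 72 h. Other rows that fell in DMEF were miR-466k (-0.13), miR-466bo-5p (-0.12) and miR-467a-3p (-0.11), and in CIMEF miR-466e-5p (-0.14), miR-669e-5p (-0.10), miR-466n-5p (-0.09), miR-466bo-5p (-0.07) and miR-466k (-0.06). With the last time left out, 0 passed in DMEF and 0 in CIMEF. With either course left out, 1 passed in DMEF and 0 in CIMEF.

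The time for labelled RNA to come midway to its plateau gives an apparent half-life, which in dividing cells includes dilution by growth. It could be fitted for 4 members in ESC course 1 and 13 in course 2. Of the 4 members fitted in both, miR-669ao-3p had the shortest values, 3.79 h (interval 1.69 to 9.28) and 4.99 h (2.47 to 12.2), followed by miR-669ap-5p at 4.83 and 5.73 h. The intervals of these members overlap, and the labelled amounts of miR-669ao-3p and miR-669ap-5p still rose from 16 to 24 h in each course. The shortest of the 13 in course 2 was miR-466c-5p at 3.73 h (1.22 to 12.2). miR-467a-5p gave 20.1 and 11.8 h and miR-669b-5p 27.9 and 11.6 h, with upper bounds of 141 h or more, so their plateau lay outside the 24 h of labelling for part of the interval. The median over these 4 was 10.3 h, and over all fitted miRNAs it was 8.66 and 8.51 h.

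In DMEF 20 members had a value in both courses, with a median of 8.74 h beside 13 and 8.91 h over all miRNAs of course 1 and 2. The shortest were miR-467b-5p at 4.9 and 2.91 h, miR-466c-5p at 6.74 and 4.52 h and miR-466k at 8.73 and 3.49 h. The longest were miR-467c-5p at 19.4 and 17.6 h, miR-467e-5p at 18.7 and 10.9 h and miR-669l-5p at 14.7 and 9.27 h. Courses differed by a median of 0.65 on the log2 scale, so members within that distance are not separated, while miR-467b-5p and miR-467c-5p lay further apart than that in both. The 3p rows miR-466bcp-3p, miR-669ao-3p, miR-467cde-3p and miR-466ade-3p lay among the 5p rows, at 7.52, 8.91, 9.37 and 11.1 h.

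**Figure D4:**
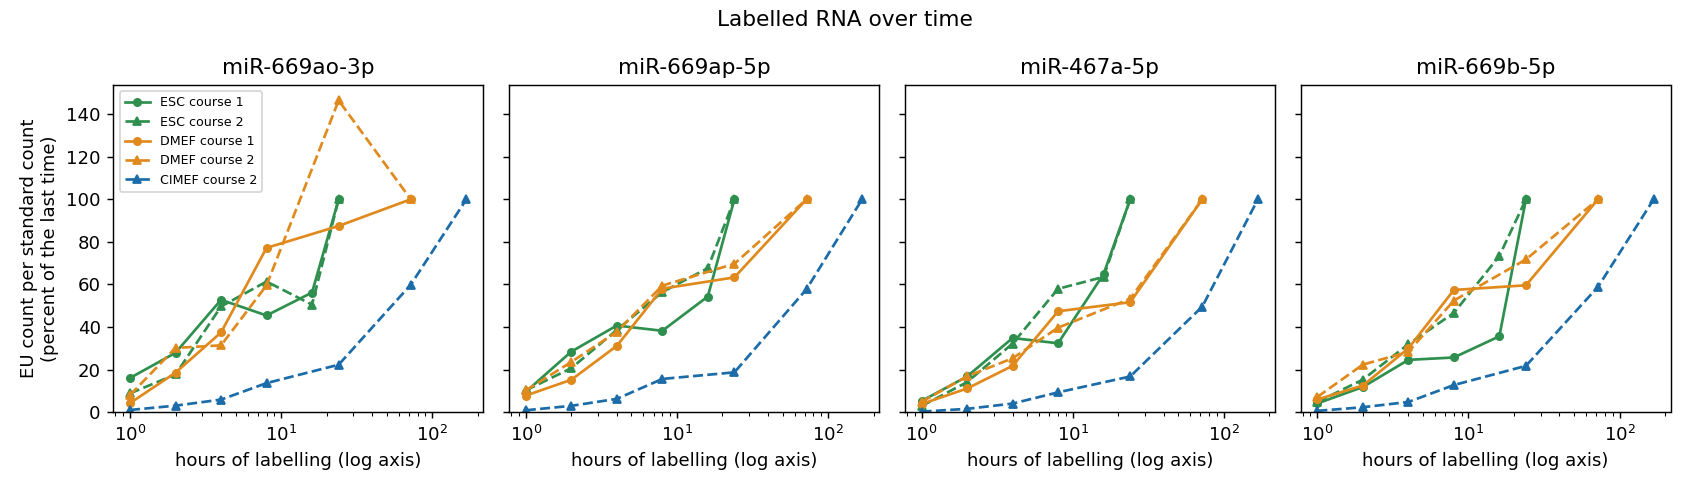
EU count per standard count over labelling time on a log axis, as a percent of the last time of the course, for 4 members in ESC, DMEF and CIMEF course 2, with circles for course 1 and triangles for course 2. The members are miR-669ao-3p, miR-669ap-5p, miR-467a-5p and miR-669b-5p. In ESC the first pair was fitted at 3.79 to 5.73 h and the other pair at 11.6 to 27.9 h. From 1 to 4 h the first pair stands at a larger part of its last value than the other. At 16 h it does not in both courses. Per 1000 standard counts, miR-669ao-3p still rose from 0.2835 at 16 h to 0.5044 at 24 h in course 1 and from 0.5745 to 1.137 in course 2. In CIMEF course 2 the 4 were fitted at 50.1 to 197 h.

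In contact-inhibited cells the fitted values were longer. In CIMEF course 2, 25 members were fitted with a median of 53.6 h, beside 32.6 h over all miRNAs, and 4 lay below that median. The knockout course gave 54.8 h over 13 members, beside 16.3 h, and 0 lay below. miR-669ao-3p was at 50.1 h (interval 28.2 to 119) in CIMEF course 2 and 62.5 h in CyrKO, and miR-669ap-5p at 51.3 and 27 h. The exception was miR-467a-3p, at 2.38 h (interval 0.706 to 6.02), the shortest of the 25. In DMEF course 1 it lay at the short end of the range, 0.25 h. In CIMEF course 1, 3 of the 5 fitted members lay at the end of the range that could be fitted. That course held 35 member counts at 0 h and 29 at 1 h. Per 1000 standard counts the 0 h value of 50.95 lay above the 9.715 at 1 h and the 42.13 at 2 h.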

How the data were processed

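Small RNA was sequenced from 47 input and 47 EU libraries, and messenger RNA (mRNA) from 6 libraries. The deposited values are raw read counts per mature miRNA or gene, from the authors' tables, with no normalization. Per the submitters' processing notes, reads were trimmed with cutadapt, and 81 samples also list STAR 2.4, HTSeq 0.9.1 and the build mm10/GRCm38; how reads shared by near-identical hairpins were assigned, and whether duplicates were removed, is not given in the sources used here. CPM is the count per 1e6 miRNA (or gene) counts of the library or course, unscaled. The miRNA total ran from 912688 to 9117300 in input and from 7922 to 2463188 in EU after 0 h.

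Tests used edgeR 4.0.16 in R 4.3.3 (TMM scaling, filterByExpr, quasi-likelihood, two-sided, Benjamini-Hochberg over all features, threshold 0.05), with DESeq2 1.42.0 as an alternative. Input counts were summed per course, so that the course was the replicate. EU and input sums of 2, 4 and 8 h were compared with the course as a block. Slopes were fitted on log2 hours (input: log2 of hours + 1) with the course as covariate, so that the spread there is between time points. Whether courses were separate cultures is not stated, and p-values measure only the spread between these courses or libraries. In 5 DMEF EU samples of course 2 a second run exists, and each deposited column was taken as 1 library.

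Half-lives came from y = A(1 - exp(-kt)), with y the EU count per count of the standards named spike 22, 24 and 26, fitted on the log scale with a noise of 0.2 over a grid of 400 values, the shortest 0.25 h and the longest 10 times the duration of the course. They required 10 counts in at least 4 libraries. These standards were chosen after total miRNA per standard was seen to fall at 1 of 37 steps between times, against 5 with dme-miR-14 and xtr-miR-427. The 0 h value was subtracted in course 1 only, since the amount of standards differed between courses. On simulated data the fit of ESC minus DMEF recovered 99.5% of 200 miRNAs changed by a log2 of 2, and that of EU minus input in DMEF 84.9% of 199. The simulated counts had the same spread for all miRNAs and no difference between courses. Their changes were larger than the members' median of 1.12 for ESC minus DMEF. These rates therefore do not measure the power for the members.

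Named members were the 12 most abundant, the 5 called members with the largest change in each direction of a comparison, and both arms of their hairpins. The members and lists were chosen with earlier results of these data known. The difference of EU minus input between lines, and the dme-miR-14 and xtr-miR-427 standards for half-lives, were added after seeing the data.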

Additional observations from a re-analysis of the deposited data

Results flagged for a closer look

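The gap between labelled and standing level differed between lines, by a test of the difference itself that was added after the data were seen. In 12 of 43 members the EU minus input difference was lower in CIMEF than in DMEF, beside 5.65% of all miRNAs, and in 0 it was higher. The members' median was -1.78, beside -0.56 over all 655 miRNAs. Named rows were miR-669f-3p (-2.62), miR-467c-5p (-2.58), miR-669c-5p (-2.35), miR-669ao-3p (-2.27 ± 0.57 (SE), edgeR adjusted p = 0.00605) and miR-466ade-3p (-2.25). miR-669ao-3p was at 8.1% and 8.24% of input in the CIMEF courses and 25.5% and 18.7% in DMEF. The count was 0 without CIMEF course 1, without either DMEF course or without ESC course 2, 4 without ESC course 1, and 11 without CIMEF course 2.

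Between ESC and DMEF the difference was called for 1 of 43 members, miR-466i-5p, beside 2.6% of all miRNAs. Its EU level was 791% and 650% of input in the ESC courses and 190% and 50.8% in DMEF, from 4, 17, 6 and 4 EU counts, and the difference was 3.25 ± 0.96 on the log2 scale (edgeR adjusted p = 0.0285). The direction was not stable. Without CIMEF course 1, 9 members were called, all lower, and the members' median went from 0.23 to -1.12. Without ESC course 1, 2 were called, both lower, with a median of -1.0. Without ESC course 2 or either DMEF course 0 were called in edgeR, with 7, 1 and 0 members at an unadjusted p under 0.05 (ESC course 2, DMEF courses 1 and 2).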

How the results depend on the processing

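Counts of called members moved with the settings, and some directions with them. For input, DESeq2 called 13 members (457 miRNAs over all) in ESC minus DMEF, 37 (523) in ESC minus CIMEF and 2 (110) in CIMEF minus DMEF. The replicate block gave 4 and 9 in the first 2; course numbers did not pair the lines (correlations of course differences 0.208, 0.11 and 0.0968; 0.0324 or less for mRNA). Scaling by standards gave 0 in both, with medians of -6.18 and -5.22, and turned the sign of miR-669j (-3.16 and -3.17), miR-669h-3p (-3.75 and -3.38), miR-669h-5p (-4.43), miR-466l-3p (-5.04), miR-669p-3p (-5.33), miR-466i-3p (-2.23), miR-466f-3p (-2.45) and miR-467a-3p (-3.62). The standards took 36.08 and 5046 counts per 1e6 in the CIMEF courses, 71.23 and 31040 in DMEF and 32190 and 19710 in ESC. They thus differed widely between courses of the same line, so this scaling cannot compare the lines.

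For EU minus input, ESC gave 29 without a filter, 22 with all times summed and 0 with no replicate block; DMEF gave 0 with no replicate block; CIMEF gave 17 with DESeq2 and 13 with no replicate block. Scaling by standards was not run there, as their amounts differ between the kinds of library. The CIMEF against DMEF count was 7 with DESeq2, 0 with no replicate block and 1 with all times summed. That of ESC against DMEF was 6 without a filter, 0 with DESeq2, 0 with no replicate block and 3 with all times summed. There the members' median of 0.23 turned to -0.19 with RLE, -0.155 with DESeq2, -0.79 without a filter (5 of 6 lower) and -0.31 with all times summed (2 of 3 lower).

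For EU over time, ESC gave 1 with RLE, 4 without a filter (3 higher, 1 lower), 0 with DESeq2, 13 with standards and 0 without 1 h. DMEF gave 8 without a filter and 23 with standards, and CIMEF 23 with standards. With standards, 206 miRNAs rose over all in ESC, 310 in DMEF and 367 in CIMEF. Standards turned the slopes of miR-669ao-3p (0.55) and miR-669ap-5p (0.61) in ESC, of miR-466bo-5p (0.43), miR-467b-5p (0.42) and miR-669ap-5p (0.53) in DMEF and of miR-467a-3p (0.33) in CIMEF, since they measure amount and not share. For input over time, ESC gave 1 with RLE, 3 with DESeq2 and 3 without the last time; DMEF 0 without the last time; CIMEF 0 with standards and 0 without the last time. Sfmbt2 in CIMEF minus DMEF was -0.85 and called without a filter. The ESC half-life median was 3.87 h over 2 members with dme-miR-14 and xtr-miR-427. Unless stated, the cause was not tested.

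Leaving out 1 course gave 1 to 29 (ESC minus DMEF), 4 to 44 (ESC minus CIMEF), 0 to 5 (CIMEF minus DMEF) and 0 to 0 (CyrKO) for input; 5 to 32 (ESC), 4 to 19 (DMEF), 14 to 33 (CIMEF), 0 to 11 (CIMEF against DMEF) and 0 to 9 (ESC against DMEF) for EU minus input; 0 to 0 (ESC), 3 to 4 (DMEF) and 3 to 10 (CIMEF) for EU over time; and 0 to 0, 1 to 1 and 0 to 0 for input over time. Sfmbt2 ranged from 1.05 to 1.31, 1.36 to 2.70 and -1.58 to -0.25 (ESC minus DMEF, ESC minus CIMEF, CIMEF minus DMEF), and the half-life median from 8.67 to 12.5 h. In the fits of miRNAs with a course left out, the number called over all miRNAs moved too, so the ranges of calls are not particular to the members. EU depth in ESC, 7922 miRNA counts in the shallowest labelled library, limits what could be fitted there.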
